A study of Mus musculus with 6 samples.

Results

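The 43 genes described here encode the machinery of mitosis, and they were read in alveolar macrophages of mice with and without a myeloid knockout of Rack1. The members were given as a fixed list of gene names, chosen with earlier results of these data known. All 43 were found once each among the 26428 genes of the deposited table. Alveolar macrophages are phagocytes that live in the air spaces of the lung, and RACK1 is a scaffold that sits on the small subunit of the ribosome. RNA sequencing covered 6 libraries from lung, 3 labelled as control with the genotype Rack1F/- and 3 labelled as knockout with the genotype Rack1{delta}Mye. No treatment, age, sex or strain is given in the sources used here, nor is the promoter that drives deletion in the myeloid lineage or the part of Rack1 removed. The labels do not say whether the libraries came from separate animals, so each p-value reflects only sample-to-sample spread, which may be technical.

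Mitosis is driven by cyclin-dependent kinase 1 bound to cyclins A and B, which starts chromosome condensation and spindle assembly. The spindle checkpoint then holds back the anaphase-promoting complex until every kinetochore is attached, after which this ubiquitin ligase marks cyclin B and securin for destruction and the cell divides. Most of these genes are transcribed late in the cell cycle, from promoters bound by the MuvB complex together with B-MYB and FOXM1. In the lung, alveolar macrophages maintain their number largely by dividing in place, and only a small share of them divides at any time.

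In CPM, which are counts scaled to a common library size, the targeted gene Rack1 read 77.3, 83.5 and 81.1 across control replicates 1 to 3, against 38.6, 38.2 and 34.1 across knockout replicates 1 to 3. Every knockout library was below every control library. Totals ran from 51894849 to 66163430 estimated count units per library. The 10 most abundant genes took 31.9% to 40.9% of the units in control and 39.99% to 48.5% in knockout. CPM values were scaled for this difference by the trimmed mean method (TMM). The median log2 fold change over all genes tested was 0.01 with TMM and -0.31 with library totals. The 12 listed markers of alveolar macrophages summed to 76147 to 149982 CPM in control and 87128 to 156386 CPM in knockout, most of it from Chil3. The lowest of them in control was Mertk, at a mean of 28.8 CPM. Of those 12, 4 were called lower in knockout (Siglecf, Fabp1, Krt79 and Cidec) and 2 higher (Marco and Car4). Of 5 pan-leukocyte and macrophage markers 1 was lower. T-cell markers summed to at most 28.0 CPM.

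Mitosis genes were lower in the knockout libraries. All 43 members passed the default count filter on the deposited units, of which about 4 were taken as 1 read pair. With counts divided by 4, 42 did. Of the 43 members, 15 fell and 0 rose (edgeR's quasi-likelihood test, with Benjamini-Hochberg adjustment over all 14797 genes tested and a threshold of 0.05). The share that fell was 34.9%, against 6.01% of all genes tested, and 5.93% of all genes tested rose. Because the list was chosen with earlier results of these data known, these shares are a description and not a test of the list. At an unadjusted p under 0.05 edgeR had 27 members lower and 0 higher, DESeq2 called 18 lower and 0 higher, and limma on log2(FPKM + 1) called 11 lower and 0 higher. The log2 fold change was below 0 for 40 of 43 members, with a median of -0.70 against 0.01 for all genes tested. All 3 knockout libraries lay below all 3 control libraries for 26 members, or 60.5%, against 15.9% of genes tested. They lay above all 3 control libraries for 1 member, or 2.33%, against 15.3% of genes tested. Among members that fell, fold differences ran from 1.34 for Bub3 to 2.28 for Pbk. The count of members that fell was 5, 12 and 8 without control replicates 1, 2 and 3, and 11, 10 and 9 without knockout replicates 1, 2 and 3. In bulk samples, fewer dividing cells and less of these RNAs per cell cannot be told apart.

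**Figure D1:**
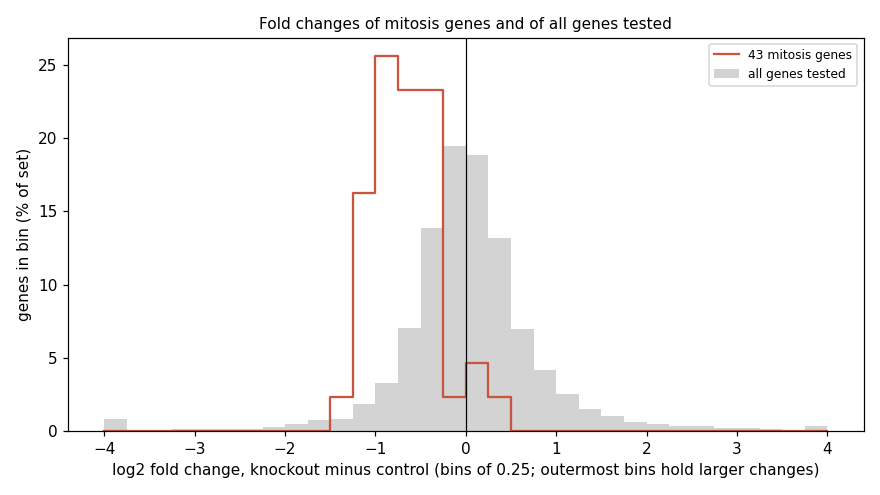
Share of genes (%, y axis) in each bin of log2 fold change, knockout minus control (x axis), for all 14797 genes tested (grey bars) and the 43 mitosis genes (red line). The mitosis genes lie to the left of 0, with 40 of 43 below it and a median of -0.70, while all genes centre at 0.01.

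Members varied together within groups as well as between them. Here and below, whether groups overlap refers to TMM-scaled CPM unless FPKM is named. Summed over the 43 members, the TMM-scaled level was 465.6, 449.7 and 510.3 CPM in control replicates 1, 2 and 3 and 333.4, 345.7 and 255.8 CPM in knockout replicates 1, 2 and 3. Control replicate 3 was the highest control library for 31 members, or 72.1%, against 36.2% of all genes tested. Knockout replicate 3 was the lowest knockout library for 36 members, or 83.7%, against 33.1% of all genes. Relative to the control mean, the median member stood at -0.01, -0.08 and 0.14 log2 units in the control libraries and at -0.52, -0.35 and -1.01 in knockout replicates 1, 2 and 3. In summed FPKM, knockout replicate 3 was not the lowest. The deposited FPKM values, which are not TMM-scaled, summed to 138.3, 162.0 and 194.9 in control and to 85.6, 85.5 and 89.8 in knockout replicates 1, 2 and 3. A large part of these knockout sums came from 1 gene, Cks2, at 29.6, 26.8 and 34.1 FPKM, which was highest in knockout replicate 3. On both scales the groups did not overlap in these sums.

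**Figure D2:**
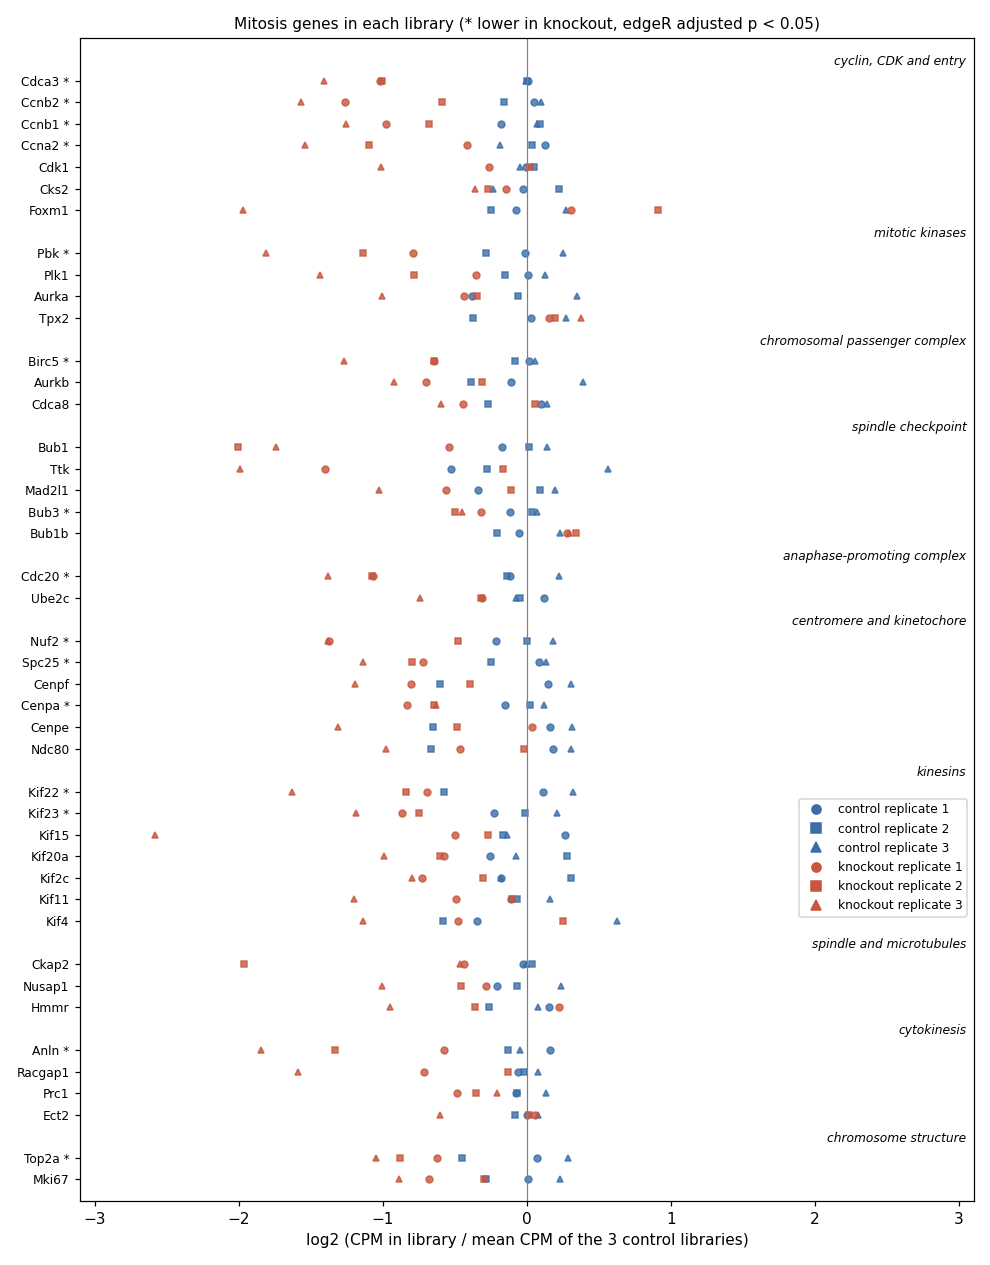
Level of each mitosis gene in each library, as log2 of its CPM over the mean CPM of the 3 control libraries (x axis), with genes grouped by role (y axis). Blue marks are control libraries, red marks knockout libraries, and shapes give the replicate number. The red marks lie to the left of the blue ones for 26 genes and to the right for Bub1b, and a star marks the 15 genes that fell.

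Promoters of these genes were read from RefSeq on GRCm38.p6, in windows of 300 bases that run from 250 bases before the annotated transcript start to 50 bases after it, and 37 of 43 members had one. Aurkb, Ccna2, Foxm1, Kif20a, Pbk and Tpx2 were not matched. The letters searched were those of the cell cycle genes homology region (CHR), the element that MuvB complexes bind, as TTTGAA or TTCGAA on either strand, and those of the CCAAT box, which NF-Y binds, on either strand. The members' matches overlapped each other in 1 case. The windows below are those of the 8 matched members with the smallest p, followed by Cdk1, which did not pass the test. They are shown so that the letters, present in most but not all members, can be seen in place. Each runs 5′ to 3′ on the gene's own strand from 110 bases before the start through the first 30 transcribed bases, with CHR letters and CCAAT boxes in capitals.
Cdca3 (chr6:124830066-124830205, plus strand): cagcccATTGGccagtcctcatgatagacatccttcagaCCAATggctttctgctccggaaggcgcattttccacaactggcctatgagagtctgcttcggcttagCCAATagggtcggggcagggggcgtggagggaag
Cdc20 (chr4:118437314-118437453, minus strand): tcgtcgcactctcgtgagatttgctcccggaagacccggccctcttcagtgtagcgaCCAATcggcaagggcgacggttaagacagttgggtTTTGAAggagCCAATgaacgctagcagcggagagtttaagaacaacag
Ccnb1 (chr13:100786457-100786596, minus strand): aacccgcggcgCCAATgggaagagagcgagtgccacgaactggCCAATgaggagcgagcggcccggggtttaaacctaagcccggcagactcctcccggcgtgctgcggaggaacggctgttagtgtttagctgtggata
Spc25 (chr2:69206184-69206323, minus strand): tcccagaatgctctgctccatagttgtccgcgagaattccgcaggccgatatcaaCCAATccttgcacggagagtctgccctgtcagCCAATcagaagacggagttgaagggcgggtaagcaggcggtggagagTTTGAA
Kif23 (chr9:61946770-61946909, minus strand): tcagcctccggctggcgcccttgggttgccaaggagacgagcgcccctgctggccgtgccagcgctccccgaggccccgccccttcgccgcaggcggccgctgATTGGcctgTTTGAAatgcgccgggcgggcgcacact
Ccnb2 (chr9:70421525-70421664, minus strand): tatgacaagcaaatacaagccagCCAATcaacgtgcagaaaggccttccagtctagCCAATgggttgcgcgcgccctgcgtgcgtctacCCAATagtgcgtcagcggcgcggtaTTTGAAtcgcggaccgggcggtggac
Birc5 (chr11:117849127-117849266, plus strand): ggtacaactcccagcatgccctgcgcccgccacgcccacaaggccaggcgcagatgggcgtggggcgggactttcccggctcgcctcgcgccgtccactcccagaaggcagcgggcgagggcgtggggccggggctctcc
Cenpa (chr5:30666776-30666915, plus strand): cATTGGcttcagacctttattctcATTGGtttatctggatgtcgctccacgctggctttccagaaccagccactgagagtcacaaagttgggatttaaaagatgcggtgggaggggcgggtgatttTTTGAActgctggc
Cdk1 (chr10:69352883-69353022, minus strand): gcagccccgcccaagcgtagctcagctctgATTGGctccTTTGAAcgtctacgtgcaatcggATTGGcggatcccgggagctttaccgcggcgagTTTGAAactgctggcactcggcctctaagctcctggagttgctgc

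CHR letters were common in these windows. They were present in 30 of 37 members, or 81.1%, against 17.1% of the 10478 other tested genes with a window. A CCAAT box was present in 78.4% of members and 43.1% of other genes, and both motifs together in 70.3% and 7.2%. CCAAT boxes on one strand spaced 31 to 33 bases apart, a spacing known from cyclin B promoters, were present in 18.9% of members and 1.6% of other genes. In the Ccnb2 window the boxes start at -87, -54 and -21, counting the annotated start as 0, and CHR letters start at 4. In the Cdc20 window CHR letters start at -18 between CCAAT boxes at -53 and -8, and in the Cdca3 promoter they start at 30, past the bases shown. The RefSeq start of Cdca3 lies 629 bases from the start of the gene in the deposited table. The Ccnb1 window held CCAAT boxes and no CHR letters, and the Birc5 window held neither. CHR letters were in 10 of 13 members that fell (76.9%) and in 20 of 24 that did not pass the test (83.3%), and a CCAAT box in 76.9% and 79.2%. At least 2 CCAAT boxes were in 9 of 13 members that fell and 12 of 24 of the others, and the spacing of 31 to 33 bases in 23.1% and 16.7%, differences that were not tested. Promoters of listed DNA replication genes held CHR letters in 6 of 32 cases, or 18.8%. These matches are descriptions of the letters, and binding was not measured.

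**Figure D3:**
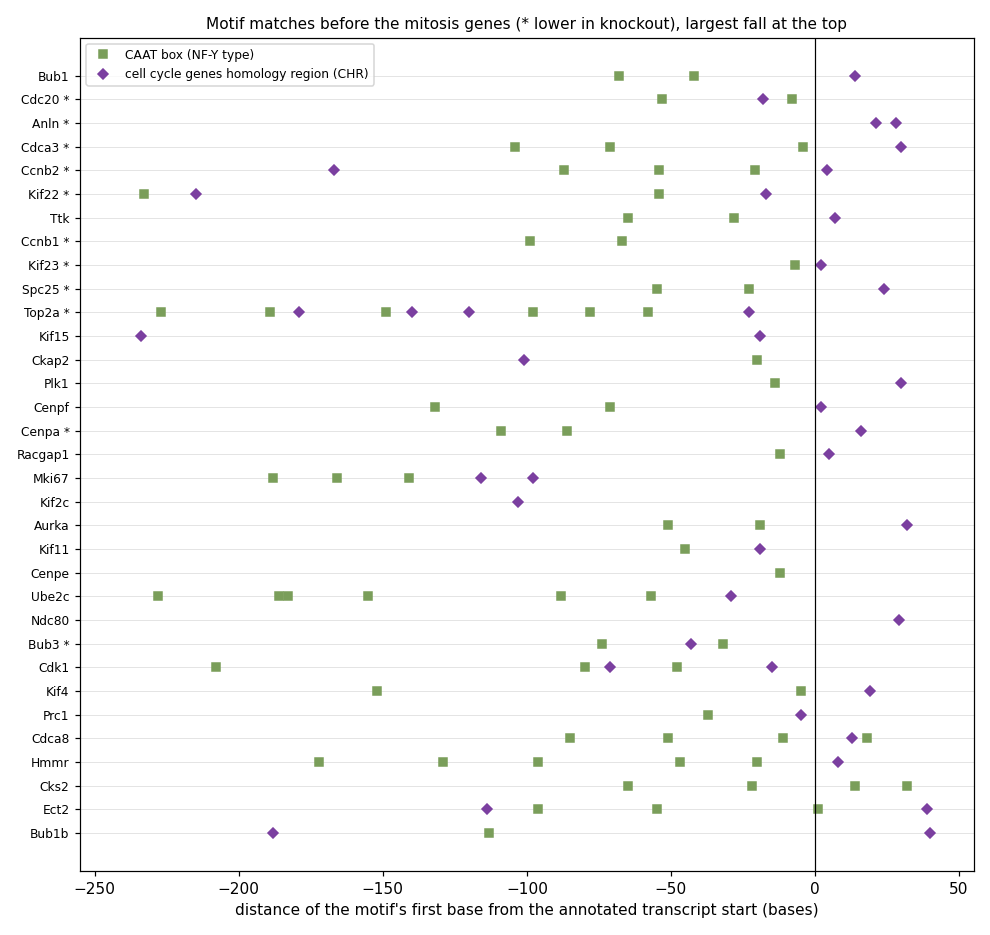
Distance in bases of each motif match from the annotated transcript start (x axis) in the 33 mitosis genes with at least 1 match (y axis), ordered by fold change with the largest fall at the top. Squares are CCAAT boxes and diamonds CHR letters, and a star marks genes that fell. CHR letters gather near the start in called and uncalled genes alike, as in Ccnb2 at 4 and Cdk1 at -15.

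Cyclins and the factors that switch on cyclin-dependent kinase 1 held several of the clearest falls. Ccnb1, which encodes cyclin B1 (ENSMUSG00000041431, chromosome 13 at 100778650 to 100786570, minus strand), stood at 11.3, 13.6 and 13.4 CPM in the control libraries, in replicate order, and at 6.49, 7.97 and 5.35 CPM in the knockout libraries. The groups did not overlap, and the 1.94-fold fall had a log2 fold change of -0.95, standard error 0.182 (edgeR adjusted p = 0.00797). Ccnb2, which encodes cyclin B2, stood at 24.4, 21.1 and 25.3 CPM in control and at 9.85, 15.7 and 7.98 CPM in knockout, a 2.12-fold fall (edgeR adjusted p = 0.0119). Knockout replicate 2 was the highest of its group for both cyclins B and still below every control library. Ccna2, which encodes cyclin A2 of S phase and early mitosis, fell to 6.06 ± 2.43 CPM from 11.6 ± 1.27 CPM in control (SD, n = 3 per group; edgeR adjusted p = 0.0365). Cdca3, whose product helps degrade the CDK1 inhibitor WEE1, had the smallest p of all members. Its levels were 15.0, 14.9 and 14.8 CPM in control and 7.36, 7.41 and 5.62 CPM in knockout, so that the control libraries were nearly equal and every knockout library was far below them. Cdca3 had a log2 fold change of -1.13, standard error 0.160 (edgeR adjusted p = 0.00167).

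The kinase itself showed no call. Cdk1 stood at 18.2, 19.0 and 17.7 CPM in control and at 15.3, 18.6 and 9.07 CPM in knockout. Knockout replicate 2 lay within the control range and knockout replicate 3 was far below it. The log2 fold change of Cdk1 was -0.36, with a 95% interval of -0.85 to 0.14, unadjusted for the number of genes (edgeR adjusted p = 0.363). Cks2, a small subunit that binds cyclin-dependent kinases, was the most abundant member per length, at 45.1 FPKM in control and 30.2 in knockout. Its log2 fold change was -0.26 (edgeR adjusted p = 0.316), and its groups overlapped in TMM-scaled CPM but not in FPKM, at 38.0, 52.6 and 44.7 in control and 29.6, 26.8 and 34.1 in knockout. Foxm1, the transcription factor of many mitosis genes, was read from only 64 to 128 units per library in control and 19 to 96 in knockout. It stood at 1.17, 1.04 and 1.49 CPM in control and at 1.52, 2.32 and 0.316 CPM in knockout, so that knockout libraries were both above and below the controls, and its interval of -1.15 to 1.46 covers a doubling in either direction.

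Among the 2 members that act in mitotic protein destruction, 1 fell, against 6.01% of all genes tested. Cdc20, the activator that brings substrates to the anaphase-promoting complex (ENSMUSG00000006398, chromosome 4 at 118432901 to 118437352, minus strand), stood at 10.9, 10.7 and 13.8 CPM in control and at 5.64, 5.62 and 4.55 CPM in knockout. All knockout libraries lay close together and below all controls. The 2.25-fold fall had a log2 fold change of -1.17, standard error 0.177 (edgeR adjusted p = 0.00240). Ube2c, the ubiquitin-conjugating enzyme of this complex, was at 16.0 ± 1.18 CPM in control and 11.8 ± 1.91 CPM in knockout (SD, n = 3 per group). The Ube2c groups did not overlap, but the difference did not pass the test (log2 fold change -0.44, edgeR adjusted p = 0.105). Of 17 listed subunits and regulators of the complex, 3 fell (17.6%) and 0 rose, against 6.01% and 5.93% of all genes tested. At an unadjusted p under 0.05 edgeR had 5 lower and 1 higher. The median log2 fold change of these 17 genes was -0.13. Those that fell included Anapc5, a scaffold subunit, from 89.7 ± 5.35 to 60.1 ± 2.19 CPM, and Fzr1, the activator used after anaphase and in G1, from 36.8 ± 6.57 to 23.4 ± 4.07 CPM. DESeq2 called 3 lower and 0 higher, and limma 2 and 0.

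Centromere and kinetochore genes fell in 3 of 6 cases, against 6.01% of all genes tested. Spc25, a subunit of the NDC80 complex that holds microtubules at the kinetochore, stood at 13.9, 11.1 and 14.4 CPM in control and at 7.97, 7.56 and 5.98 CPM in knockout (log2 fold change -0.87, standard error 0.176, edgeR adjusted p = 0.0101). Nuf2, another subunit of that complex, stood at 4.62, 5.37 and 6.09 CPM in control and at 2.07, 3.84 and 2.06 CPM in knockout (edgeR adjusted p = 0.0413). Neither gene overlapped between groups. Ndc80, the subunit that names the complex, stood at 5.04, 2.80 and 5.52 CPM in control and at 3.22, 4.39 and 2.26 CPM in knockout. Control replicate 2 was lower than 2 of the 3 knockout libraries there, and Ndc80 had no call (edgeR adjusted p = 0.441). Cenpa, the histone H3 variant that marks centromeres, fell 1.63-fold, from 14.2, 16.0 and 17.1 CPM in control to 8.84, 10.1 and 10.2 CPM in knockout (edgeR adjusted p = 0.0121). Cenpe, a kinetochore motor, and Cenpf, a large coat protein, had log2 fold changes of -0.49 and -0.77 and no call (edgeR adjusted p = 0.424 and 0.0996), and control replicate 2 was the lowest control library for both.

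Among genes of the spindle checkpoint, 1 of 5 fell, against 6.01% of all genes tested. Bub3, which docks checkpoint kinases at kinetochores and is made in most cells, stood at 58.5, 65.0 and 66.6 CPM in control and at 50.8, 44.8 and 46.4 CPM in knockout. The groups did not overlap and the fall was the smallest among called members, at 1.34-fold (log2 fold change -0.42, standard error 0.116, edgeR adjusted p = 0.0400). Bub1b, which encodes the checkpoint protein BUBR1, was the only member whose knockout libraries all lay above the controls. It stood at 7.47, 6.74 and 9.10 CPM in control and at 9.41, 9.85 and 9.50 CPM in knockout, with a log2 fold change of 0.30 and no call (edgeR adjusted p = 0.291). That order depends on scaling, since with library totals the log2 fold change of Bub1b was -0.03. Bub1, the partner kinase, was at 1.55 ± 0.170 CPM in control and 0.640 ± 0.373 CPM in knockout (SD, n = 3 per group; edgeR adjusted p = 0.116). Mad2l1, the inhibitor of CDC20, and Ttk, the kinase that starts checkpoint signalling, had log2 fold changes of -0.52 and -0.997 and no call (edgeR adjusted p = 0.193 and 0.362). Ttk was read from as few as 14 units in a knockout library.

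Mitotic kinases other than Cdk1 mostly had no call. Pbk, a kinase of dividing cells, had the largest fold difference among members that fell: 7.74, 6.42 and 9.29 CPM in control and 4.53, 3.55 and 2.23 CPM in knockout (log2 fold change -1.19, standard error 0.267, edgeR adjusted p = 0.0166). Plk1, which drives centrosome maturation and mitotic entry, stood at 10.1, 9.03 and 10.96 CPM in control and at 7.86, 5.82 and 3.71 CPM in knockout. Its groups did not overlap, but the knockout libraries were spread widely and the difference did not pass (log2 fold change -0.79, edgeR adjusted p = 0.0634). Aurka, the kinase of spindle poles, was at 6.56 ± 1.68 CPM in control and 4.43 ± 1.01 CPM in knockout (SD, n = 3 per group; edgeR adjusted p = 0.178). Its activator gene Tpx2 stood at 8.07, 6.11 and 9.56 CPM in control and at 8.80, 9.08 and 10.3 CPM in knockout. The groups overlapped, and the log2 fold change of 0.24, with an interval of -0.17 to 0.66, was -0.08 with library totals.

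In the chromosomal passenger complex, which corrects faulty attachments and later directs cleavage, 1 of 3 members fell, against 6.01% of all genes tested. Birc5, which encodes survivin, stood at 36.2, 33.8 and 37.2 CPM in control and at 22.9, 22.8 and 14.8 CPM in knockout. Every knockout library was below every control, a 1.77-fold fall (log2 fold change -0.83, standard error 0.173, edgeR adjusted p = 0.0120). Aurkb, the kinase of this complex, stood at 11.8, 9.73 and 16.7 CPM in control and at 7.84, 10.2 and 6.71 CPM in knockout, and Cdca8, which encodes borealin, was at 16.3 ± 2.40 and 13.2 ± 3.27 CPM (SD, n = 3 per group). Both overlapped between groups and had no call (edgeR adjusted p = 0.106 and 0.380). Incenp, the scaffold of the complex, is not a member and had a log2 fold change of 0.11 (edgeR adjusted p = 0.761).

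Motor, spindle and cleavage genes fell in 3 of 14 cases, against 6.01% of all genes tested. The counts by role rest on few genes each, and differences between roles were not tested. Kif23, the motor of the central spindle, stood at 8.33, 9.66 and 11.3 CPM in control and at 5.36, 5.79 and 4.29 CPM in knockout, without overlap (log2 fold change -0.93, standard error 0.190, edgeR adjusted p = 0.0112). Racgap1, which joins that motor in the centralspindlin complex, was at 12.9 ± 0.655 CPM in control and 7.99 ± 3.76 CPM in knockout (SD, n = 3 per group). Its knockout libraries ranged from 4.29 to 11.8 CPM, all below control, and it had no call (edgeR adjusted p = 0.157). Kif22, a motor that moves chromosome arms, stood at 12.5, 7.78 and 14.5 CPM in control and at 7.19, 6.49 and 3.74 CPM in knockout (edgeR adjusted p = 0.0419). Anln, an actin-binding protein of the cleavage furrow, fell from 10.8, 8.83 and 9.32 CPM to 6.49, 3.84 and 2.69 CPM (edgeR adjusted p = 0.0238). Each of these genes was lower in all 3 knockout libraries. Kif20a, Kif2c, Kif15, Nusap1, Ckap2 and Prc1 also did not overlap between groups but had no call, with log2 fold changes from -0.83 for Kif15 to -0.34 for Prc1. Kif11, Kif4, Hmmr and Ect2 overlapped between groups, with log2 fold changes from -0.54 for Kif11 to -0.15 for Ect2. Kif15 and Kif4 stood at about 0.2 FPKM in control, at 0.203 and 0.216.

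The common markers of dividing cells were low in both groups. Top2a, the topoisomerase that untangles sister chromatids, stood at 10.6, 7.36 and 12.3 CPM in control and at 6.53, 5.48 and 4.89 CPM in knockout, without overlap (log2 fold change -0.84, standard error 0.216, edgeR adjusted p = 0.0293). Mki67, whose product coats mitotic chromosomes, stood at 8.55, 6.97 and 9.99 CPM in control and at 5.32, 6.90 and 4.59 CPM in knockout. The lowest control and the highest knockout library of Mki67 differed by little, and the log2 fold change of -0.61, with an interval of -1.07 to -0.14, did not pass the test (edgeR adjusted p = 0.0945). Per length, Mki67 stood at 0.907 FPKM in control and 0.464 FPKM in knockout, and Top2a at 1.19 and 0.521 FPKM. Across the 43 members the log2 fold change was only loosely ordered by level, with a Spearman correlation of -0.166 to the mean control FPKM, given as a description because the genes share libraries.

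**Figure D4:**
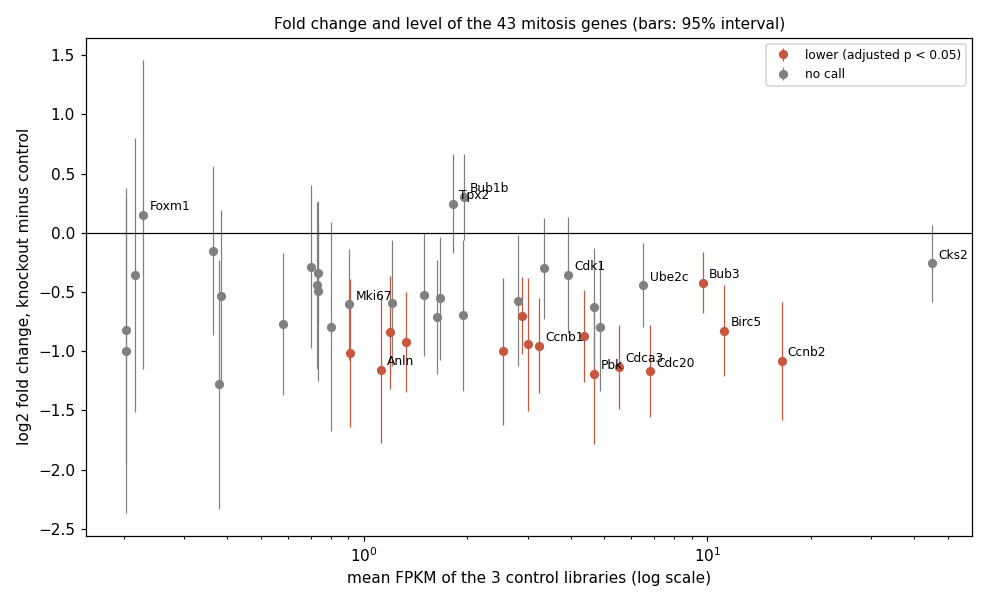
Log2 fold change, knockout minus control (y axis), against the mean FPKM of the 3 control libraries (x axis, log scale) for the 43 mitosis genes. Bars are 95% intervals of each gene, unadjusted, and red points fell. Called genes span the range from Nuf2 at 0.908 FPKM to Ccnb2 at 16.4 FPKM, while genes near 0.2 FPKM have wide bars.

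The members that fell differed in how far their calls held. Cdc20, Cdca3 and Ccnb1 were called lower under all 16 alternative settings and left-out libraries, with adjusted p at most 0.0127, 0.0123 and 0.0363. Spc25 and Birc5 lost their calls in 1 of 16, without control replicate 1, where adjusted p reached 0.0519 and 0.0548. Kif23 lost its call in 2 limma fits, and Ccnb2 without control replicate 1 or knockout replicate 1, with adjusted p at most 0.0621 and 0.0580. Cenpa lost it without knockout replicate 1 and in 2 limma fits, and Pbk without control replicate 1, control replicate 3 or knockout replicate 2. Anln, Ccna2, Top2a, Kif22, Nuf2 and Bub3 kept their calls in 11, 10, 8, 8, 8 and 5 of 16, and each lost it in at least 5 of the 6 fits with a library left out. No member was called higher by any setting.

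Other genes of mitosis, taken from lists of complexes rather than from the members, were set beside them. Of 112 such genes tested, 12 fell (10.7%) and 4 rose (3.6%), against 6.01% and 5.93% of all genes tested. Their median log2 fold change was -0.31, and their difference from the members was not tested. Condensin, which compacts chromosomes, had 0 calls among 8 genes (2 lower and 0 higher at an unadjusted p under 0.05 by edgeR, and 0 calls by DESeq2 or limma), and all 8 had log2 fold changes below 0. Cohesin, separase and securin had 0 calls among 12 genes, again with 2 lower and 0 higher at an unadjusted p under 0.05 and 0 calls by DESeq2 or limma. Of 26 other kinetochore genes, 3 fell and 2 rose, the latter 7.7% against 5.93% of all genes tested. Mis18a, which helps load the CENP-A histone, fell to 7.81 ± 0.833 CPM from 12.6 ± 1.69 CPM in control (SD, n = 3 per group). Mis12, a kinetochore core subunit, rose from 6.83 ± 1.73 CPM to 11.7 ± 1.01 CPM, a call lost in 9 of 16 alternatives, with adjusted p from 0.00899 to 0.448. Scaled to library totals, or by limma on log2(FPKM + 1), 0 genes of this list were called higher, against 2 at an unadjusted p under 0.05 by edgeR and 2 by DESeq2. In the list of other cytokinesis and spindle genes, 3 of 27 fell (11.1%) and 1 rose (3.7%), beside the same shares of all genes tested. Aspm, a spindle pole gene, fell from 1.46 ± 0.0876 to 0.420 ± 0.247 CPM, and Psrc1, a microtubule-associated protein gene that is also a p53 target, rose from 3.02 ± 0.375 to 8.79 ± 0.934 CPM (edgeR adjusted p = 0.000724).

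Regulators upstream of the members were read as well. Of 10 genes that set the phosphorylation of CDK1 or bind it, 2 fell (20.0%) and 0 rose, against 6.01% and 5.93% of all genes tested. The numbers were the same at an unadjusted p under 0.05 by edgeR, and DESeq2 called the same numbers. Pkmyt1, an inhibitory kinase of CDK1, fell from 7.26, 6.84 and 12.3 CPM to 4.57, 4.22 and 3.39 CPM, while Cks1b, the sister gene of Cks2, fell to 29.4 ± 1.44 CPM from 41.1 ± 1.68 CPM in control (SD, n = 3 per group). Of 12 genes of MuvB and its partners, 1 fell and 1 rose, or 8.3% each way, near the 6.01% and 5.93% of all genes tested. Lin37, a MuvB core subunit needed for repression in quiescent cells, rose from 35.3, 31.4 and 41.6 CPM to 55.8, 46.8 and 61.3 CPM (log2 fold change 0.60, edgeR adjusted p = 0.0249), and its call was lost in 7 of 16 alternatives, with adjusted p from 0.00367 to 0.579. With library totals 0 genes of this list were called by edgeR in either direction. Rbl1, which encodes the pocket protein p107, fell from 20.1 ± 3.01 to 12.2 ± 2.98 CPM. Mybl2, which encodes B-MYB, was at 3.12 ± 0.906 and 1.74 ± 0.446 CPM and had no call (edgeR adjusted p = 0.135).

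DNA replication genes, which act in the phase before mitosis, were set beside the members. Of 42 tested, 4 fell and 0 rose, or 9.5% lower, against 34.9% of mitosis genes and 6.01% of all genes tested, and at an unadjusted p under 0.05 edgeR had 16 lower and 1 higher. DESeq2 called 5 lower and 0 higher. The median log2 fold change was -0.30, against -0.70 for the mitosis genes, and this difference between lists was not tested. Tk1, the thymidine kinase of S phase, fell to 15.4 ± 4.60 CPM from 34.4 ± 4.92 CPM in control (SD, n = 3 per group). The replicative helicase gene Mcm5 fell to 9.64 ± 2.02 CPM from 16.7 ± 0.948 CPM, and Mcm7 to 14.9 ± 0.494 CPM from 23.4 ± 3.51 CPM. Mcm2, of the same helicase, had a log2 fold change of 0.00 (edgeR adjusted p = 0.996). Among 18 tested G1 cyclins, their kinases and brakes of the cycle, 8 rose (44.4%) and 3 fell (16.7%), against 5.93% and 6.01% of all genes tested. The cyclin gene Ccnd1 rose from 1.02 ± 0.175 to 6.92 ± 1.96 CPM, and Cdkn2b, an inhibitor of its kinases, from 1.34 ± 0.397 to 4.41 ± 1.04 CPM. Scaling changed the size of this: the list's median log2 fold change was 0.46 with TMM and 0.12 with library totals, where 4 rose and 2 fell.

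**Figure D5:**
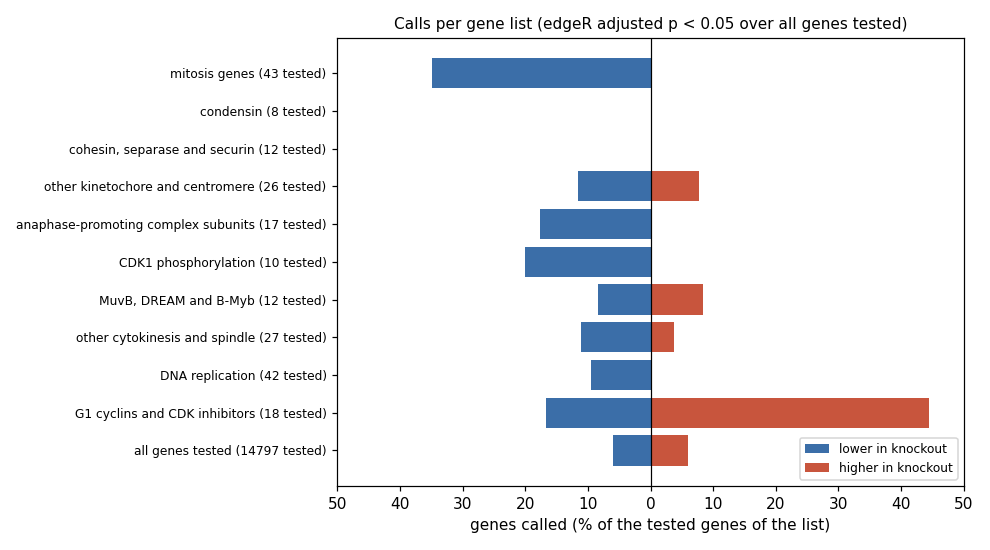
Share of tested genes called lower (blue, to the left) or higher (red, to the right) in knockout, in percent (x axis), for each gene list (y axis, with the number tested). Mitosis genes have 34.9% lower and none higher, and DNA replication genes 9.5% lower. The G1 list, which also holds the kinases of the G1 cyclins, has 44.4% higher and 16.7% lower. Over all genes tested, 6.01% were lower and 5.93% higher.

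Markers of other cells were read beside these results. Listed markers of intestinal epithelium were low in control and near 0 in knockout. They summed to 11.4 to 15.4 CPM in control and 0.0436 to 0.410 CPM in knockout. Of 8 listed, 5 were tested and all 5 were called lower, against 6.01% of all genes tested. Those 5 passed the count filter only through the control libraries, so a lower level in knockout was set in advance for them. Of the listed markers, Vil1, Krt20 and Slc26a3 were at 0 in all 3 knockout libraries. The stem cell gene Lgr5 was as well, and it was also at 0 in control replicate 2. Lgr5, Cdx1 and Cdx2 had too few counts to be tested. In control replicates 1, 2 and 3, Lgr5 was read from 14, 0 and 9 units, Cdx1 from 5, 19 and 24, and Cdx2 from 0, 0 and 8. Cdx2 was also at 0 in all 3 knockout libraries, while Cdx1 had 4 units in knockout replicate 2. Over the 3 control libraries the intestinal sum had the same order as the summed mitosis genes, highest in control replicate 3 and lowest in control replicate 2. In knockout replicates 1, 2 and 3 the intestinal sum was 0.0436, 0.410 and 0.0499 CPM, beside mitosis sums of 333.4, 345.7 and 255.8 CPM. The tissue these transcripts came from cannot be told from the values, and their part in the result was not tested. Epcam, an epithelial adhesion gene, stood at 20.7, 15.0 and 21.0 CPM in control and at 4.33, 2.68 and 4.90 CPM in knockout, while the lung epithelium list as a whole summed to 58.9 to 96.1 CPM in control and 49.5 to 54.9 CPM in knockout. Of 8 lung epithelium markers tested, 2 were lower and 2 higher. The surfactant gene Sftpc stood at 2.59, 6.03 and 2.16 CPM in control and at 6.75, 7.80 and 18.5 CPM in knockout (edgeR adjusted p = 0.0386), and Sftpa1 was higher as well (edgeR adjusted p = 0.0122), while Sftpb and Foxj1 were at or near 0. Markers of T cells, B cells, monocytes, endothelium and fibroblasts had 0 calls by the edgeR test, with 0, 0, 0, 0 and 1 lower and 0, 0, 1, 0 and 0 higher at an unadjusted p under 0.05. DESeq2 called 1 fibroblast marker lower and none of the others, and limma called none of these. Erythroid markers summed to 148.6 to 1174 CPM in control and 1097 to 1802 CPM in knockout. Neutrophil markers summed to 12.4 to 26.2 and 70.9 to 83.6 CPM, in knockout mostly from Retnlg, with Elane and Mpo at or near 0. Retnlg had no call in the main test (edgeR adjusted p = 0.0680), at 0, 0.243 and 11.9 CPM in control and 63.2, 51.3 and 44.1 CPM in knockout. Of the neutrophil list, DESeq2 called 1 lower and 0 higher, and limma 1 lower and 1 higher. The neutrophil marker Ly6g was at 0.312, 0.178 and 0.163 CPM in control and at 0 in all 3 knockout libraries (edgeR adjusted p = 0.0273). It was read from only 17, 11 and 14 units in control and passed the count filter through those libraries alone, so its direction carries little weight. The part of these other cells in the result was not tested.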

How the data were processed

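Per the labels' protocols, TRIzol was used for RNA and a NEBNext Ultra kit for the libraries. Named in the submitters' processing notes are cutadapt, FastQC, HISAT2, StringTie, DESeq2, edgeR and GRCm38, without versions or roles. For every gene, the authors deposited an expected (estimated) count and an FPKM for each of the libraries. How strand was treated in counting is not stated in those sources, so overlapping genes cannot be told apart. Low counts piled up at multiples of 4 units (1044 genes at 4, against 381 at 3 and 249 at 5, in control replicate 1), so a read pair was taken as about 4 units.

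Expected counts, whole as deposited, were tested with edgeR 4.0.16 in R 4.3.3: default expression filter, TMM, quasi-likelihood test of knockout against control without covariates, prior count 0.125, and Benjamini-Hochberg adjustment over all 14797 genes at 0.05. Standard errors were obtained by dividing log2 fold changes by the root of F. CPM used TMM-scaled library sizes. DESeq2 1.42.0, limma 3.58.1, Python 3.11.15, pandas 2.3.3 and matplotlib 3.10.9 were also used. The tests were run on simulated counts that lacked the steps of about 4 units, so that run does not check them for this feature of the data. Replicates were not duplicates of each other (chi-square over degrees of freedom, 15.6 to 44.3). Same-numbered libraries did not deviate together, so replicate numbers were not treated as pairs.

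The members and gene lists were chosen with earlier results of these data known. The rule for named genes took all members, Rack1, called genes of 9 pathway lists with the first 3 and up to 4 of smallest p of each, and the markers of 11 lists. Incenp, and which of these genes to describe, were chosen after their values were seen. Promoter letters are from RefSeq.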

Additional observations from a re-analysis of the deposited data

How the results depend on the processing

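The direction of the members' median, 0 calls of higher members, and Rack1 as lower held in all 16 alternatives to the main test. The number of mitosis genes called lower, 15 in the main test, was 10 to 19 in the alternatives that kept all libraries and 5 to 12 with 1 library left out; those fits have fewer samples. The median log2 fold change of the members was -1.03 when scaled to library totals and -0.31 by limma on log2(FPKM / size factor + 1), where the pseudocount shrinks low genes, against -0.70 in the main test; it was -0.79 to -0.50 with 1 library left out. Over all genes, 878 rose and 889 fell in the main test. The number that rose was 290 when scaled to library totals, or 23.7% of calls, against 49.7% in the main test. From limma it was 226 on log2(FPKM + 1), or 22.7%, and 264 on log2(FPKM + 0.1), or 22.5%. With 1 library left out, 455 to 691 rose and 372 to 565 fell. With the replicate block 13 members and 699 genes were lower and 770 higher, and correlations of same-numbered libraries' deviations were 0.0276, -0.0398 and 0.000329. Division of counts by 4, chosen after seeing the data, gave 16 members lower among 42 tested. Depth limits members near 0.2 FPKM, such as Ttk, Kif4 and Foxm1, whose intervals are wide.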
